A study of Mus musculus with 8 samples.

Results

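Immediate early genes are the genes that cells switch on within minutes of a growth signal, without new protein synthesis, and MAPK feedback genes are the inhibitors that then damp the signal. The 10 genes described here were Fos, Fosl1, Fosl2, Jun, Junb, Egr1, Ier2, Dusp1, Dusp6 and Spry2, taken by symbol from a named set, out of 16593 gene symbols with a probe on the array. All probes annotated to these symbols were read on every array. The deposited values held 11 such probes for 9 of the genes. No probe was annotated to Fosl2, so only its promoter is described here. Probes for 7 genes lay above the filter on dim signal. Those of Ier2 and Spry2 did not, so neither gene was tested.

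The arrays came from mouse embryonic fibroblasts, connective tissue cells taken from embryos at day 14.5 and made immortal by repeated passage. Both groups of cells grew in DMEM with 10% serum. The wild-type (WT) line carried normal eIF4E, the protein that binds the cap of an mRNA and brings it to the ribosome. The knock-in (EIF4E-KI, called KI here) line carried an eIF4E that cannot be phosphorylated. Total cytoplasmic RNA and heavy polysomal RNA, meaning mRNA with more than 3 ribosomes, were isolated in 2 independent experiments per line. This gave 8 Illumina bead arrays in 4 groups of 2, from 250 ng of RNA each. Because 1 line stood for each genotype, an effect of the mutation and a difference between the lines cannot be told apart. The p-values cover only the spread between the experiments.

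In growing fibroblasts, receptors for serum growth factors act through RAS, RAF, MEK and the ERK kinases. ERK switches on transcription factors of the FOS, JUN and EGR families, and it also activates the MNK kinases, which phosphorylate eIF4E. FOS and JUN proteins pair to form AP-1, a dimer that binds DNA. DUSP phosphatases remove phosphate from the MAP kinases and Sprouty proteins act further up the pathway, so both limit the signal that induces them. The mRNAs of most of these genes are short-lived.

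Values are deposited log2 signals. The median of an array was 7.69 to 7.73, close to the lowest signals, and a probe in that band has no measurable level. Among fibroblast markers, 9 of 10 measured genes lay above the filter, with Vim, the intermediate filament gene, at 13.05 on average. The macrophage and endothelial markers stayed below 8 on every array (5 and 7 genes). Of 6 epithelial markers, 2 keratin genes lay above the filter. Krt19 read 8.32 and 9.80 in WT total RNA and at most 7.98 elsewhere. Krt8 read 8.04 to 8.17 in total RNA of both lines and at most 7.90 in polysomal RNA. The part of these 2 genes in the results below was not tested. Over all probes 3 of the 4 total RNA arrays, all but KI replicate 1, correlated best with an array of the other line. The replicate 2 arrays of the lines had a correlation of 0.982 and the replicate 1 arrays 0.970, beside 0.970 within WT and 0.975 within KI. Polysomal arrays were closest within their own line, at 0.991 in WT and 0.987 in KI. The probe for Eif4e cannot show the point mutation. It read 8.66 and 8.44 in WT polysomal RNA and 7.76 on both KI polysomal arrays. In total RNA of both lines it read 7.67 to 7.82, at the bottom of the range.

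The widest differences among the members were those of Egr1 between replicates of the same group. For single arrays of equal number, a difference between lines or types of RNA exceeded any between replicates in Junb, Fos, Dusp1 and Jun. For Junb these were 1.56 and -1.53. By group means the widest such difference was 1.32 for Junb, -0.82 for Dusp1 and -0.31 for Jun. Each was smaller in size than the widest replicate difference, at -1.53, -1.07 and -0.39. For Fos the mean was 0.70, beside -0.62. Fewer cells of a type and less RNA per cell cannot be told apart in these bulk samples. Egr1 encodes a zinc finger transcription factor and is among the genes most sensitive to ERK signalling. Its signal was 13.35 and 10.26 in WT total RNA and 13.55 and 11.40 in KI total RNA, for replicates 1 and 2. In polysomal RNA it read 13.73 and 10.86 in WT, and in KI 13.43 and 12.10. All 4 replicate 1 arrays were thus above all 4 replicate 2 arrays, whatever the genotype or RNA. On a linear scale replicate 1 exceeded replicate 2 by 8.51-fold in WT total, 7.32-fold in WT polysomal, 4.46-fold in KI total and 2.52-fold in KI polysomal RNA.

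Junb encodes a JUN family partner in AP-1 and had the next widest range, 2.87 on the log2 scale. It read 9.85 and 9.39 in WT total RNA and 11.40 and 10.48 in KI total RNA. In polysomal RNA it read 9.35 and 8.54 in WT, and in KI 10.48 and 8.96. Replicate 1 was above replicate 2 in each group, the highest array was KI total replicate 1, and WT polysomal replicate 2 the lowest.

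Fos encodes the founding FOS protein, which needs a JUN partner to bind DNA. Its signal was low on all arrays: 8.41 and 8.17 in WT total, 8.90 and 8.40 in KI total, 8.44 and 7.86 in WT polysomal and 9.16 and 8.54 in KI polysomal RNA. Replicate 1 was again the higher array of every group, and WT polysomal replicate 2 was close to the bottom of the range. Fosl1 encodes FRA1, a FOS relative that stays expressed for longer in cells with active ERK. It read 10.08 and 9.28 in WT total, 9.93 and 9.31 in KI total, 9.71 and 9.54 in WT polysomal and 9.75 and 8.73 in KI polysomal RNA. Fosl1 was also higher in replicate 1 of every group, and the lowest value was that of KI polysomal replicate 2.

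Jun encodes the main JUN partner of FOS proteins and varied least among the 7 tested genes, by 0.65 from the lowest to the highest array. It read 9.07 and 9.33 in WT total, 9.06 and 9.14 in KI total, 8.98 and 8.80 in WT polysomal and 9.07 and 8.67 in KI polysomal RNA. No order by replicate was common to the 4 groups. Ier2, another immediate early gene, read between 7.63 and 7.70 on the 8 arrays, which is the bottom of the range.

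Among the feedback genes, Dusp1 encodes a nuclear phosphatase of JNK, p38 and ERK. It read 12.29 and 12.76 in WT total, 11.83 and 12.39 in KI total, 12.24 and 11.17 in WT polysomal and 11.82 and 12.33 in KI polysomal RNA. Here replicate 2 was the higher array in 3 groups, and WT polysomal replicate 2 was the lowest of the 8. Dusp6 encodes a cytoplasmic phosphatase selective for ERK. Its brightest probe (ILMN_2925711) read 10.54 and 10.57 in WT total, 10.55 and 9.94 in KI total, 11.09 and 10.33 in WT polysomal and 11.13 and 10.06 in KI polysomal RNA. Replicate 1 was higher in 3 groups, and in WT total RNA the arrays differed by 0.04. A second Dusp6 probe (ILMN_1248537) ranged from 8.27 to 8.80 and the third (ILMN_2701321), between 7.63 and 7.80, lay at the bottom. The Sprouty gene Spry2, which encodes an inhibitor of receptor signalling to RAS, read between 7.64 and 7.72 on every array.

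**Figure D1:**
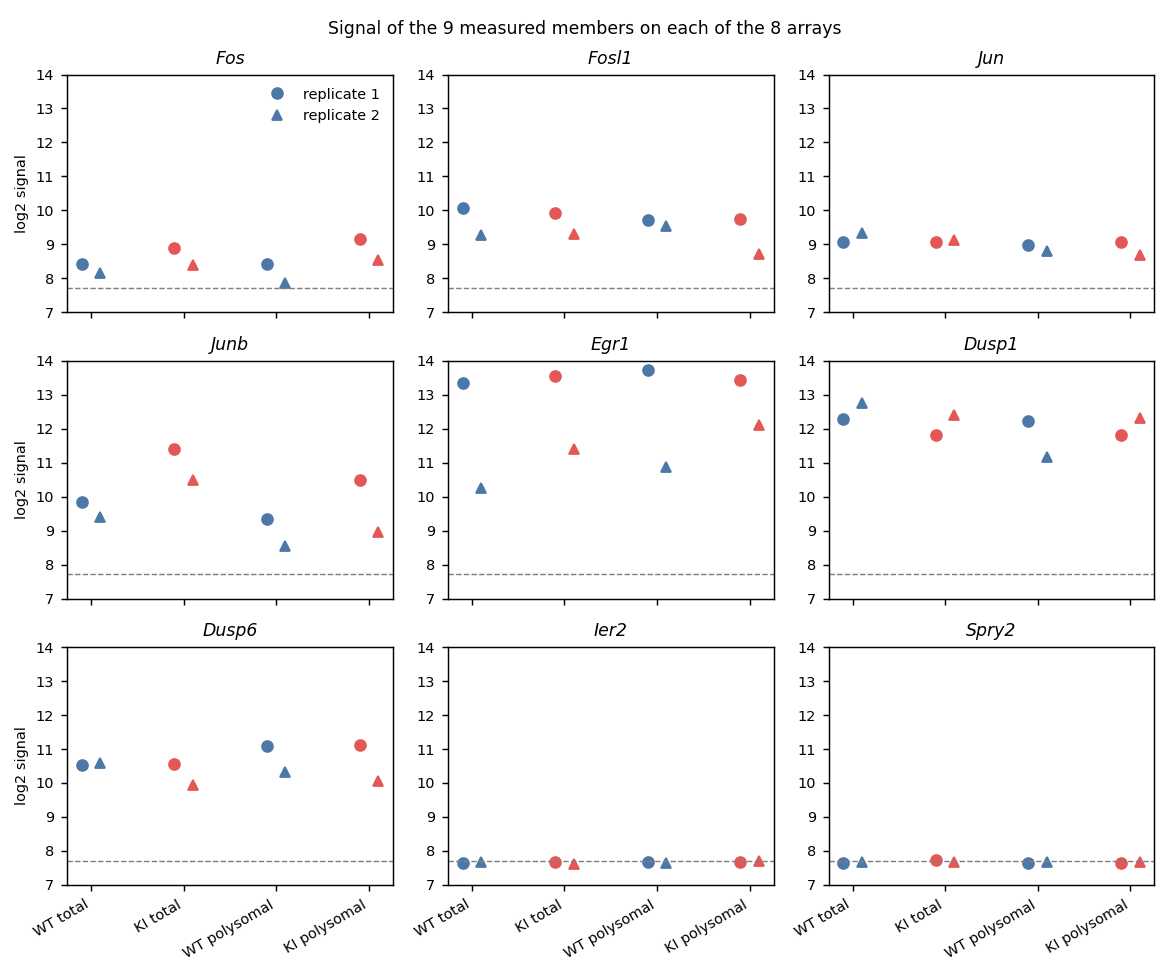
Log2 signal (vertical axis) of the 9 measured members on each array, by group, with WT in blue and KI in red, circles for replicate 1, triangles for replicate 2 and a dashed line at the median of the 8 array medians. Egr1 separates by replicate in all 4 groups, Junb is highest on KI total replicate 1, and Ier2 and Spry2 lie on the line.

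How the replicates differed was tested after these values had been seen, so the test is a description of a pattern already noticed. The labels number 2 independent experiments in each line, and do not say that equal numbers were run together. The difference was the replicate term of a limma fit that also held the 4 groups, with 8 arrays. Total and polysomal RNA of a culture share a source name, but this fit counted the 8 arrays as independent. Its SEs, intervals and p-values therefore do not allow for the shared cultures. Egr1 read -2.36 ± 0.31 (replicate 2 minus replicate 1, SE; adjusted p = 0.163), with a 95% interval of -3.15 to -1.57. Junb read -0.93 ± 0.18 (adjusted p = 0.208), Fosl1 -0.65 ± 0.15 (0.225), Dusp6 -0.60 ± 0.19 (0.271) and Fos -0.49 ± 0.09 (0.198). None of these passed at an adjusted p below 0.05, and 5 of 7 members had an unadjusted p under 0.05. The intervals of Dusp1, from -0.67 to 0.91, and Jun, from -0.38 to 0.25, held 0.

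Across all 8832 tested genes 0 passed in this comparison by limma (0% of genes), and 1297 (14.7%) had an unadjusted p under 0.05. The 5th and 95th percentiles of all genes were -0.37 and 0.39, and the 5 members named first lay below that range. For Dusp6 this held for its brightest probe only. Its second probe (ILMN_1248537) read -0.31 ± 0.11, within the range, in a fit of every probe above the filter. Egr1, Fos, Fosl1 and Junb were lower in replicate 2 of all 4 groups, that is 4 of 7 tested members, where 10.8% of all tested genes were. The total and polysomal groups of a line share their cultures, so the 4 groups are not independent comparisons. The limma fit with a prior variance that follows the signal level called Egr1 (adjusted p = 0.0318) and 0.0453% of all tested genes. That fit also counted all arrays as independent, and it was not run with an array left out. In the fit without that prior, Egr1 read -2.12 and Junb -1.09 when WT total replicate 2 was left out.

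**Figure D2:**
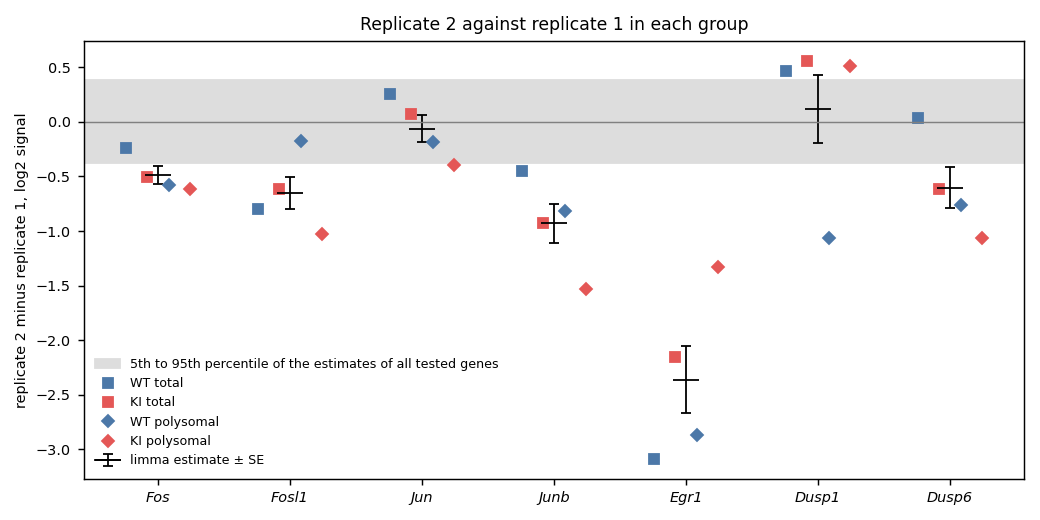
Replicate 2 minus replicate 1 in log2 signal for the 7 tested members, with 1 point per group (squares for total, diamonds for polysomal RNA, WT in blue, KI in red), the limma estimate ± SE in black and the 5th to 95th percentile of the estimates of all tested genes in grey. All 4 points lie below 0 for Egr1, Junb, Fosl1 and Fos, and 3 of 4 lie above 0 for Dusp1.

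The study asked how the non-phosphorylatable eIF4E changes mRNA levels and their translation. In KI against WT total RNA limma called 0 of 7 members, and none of the 7 was at an unadjusted p under 0.05. Of all tested genes 0.113% passed and 801 were at that unadjusted p. Junb read 1.32 ± 0.60 higher in KI (SE; 2 arrays a group; adjusted p = 0.602 in limma), with a 95% interval from -0.15 to 2.79. It was the 1 member whose KI and WT arrays did not overlap, as held for 31.9% of all genes. Egr1 read 0.67 ± 1.45, an interval of -2.90 to 4.24 that spans large changes in both directions. The sign of Egr1 turned without WT total replicate 2 (-0.88) and without KI total replicate 1 (-0.41). For Jun the interval ran from -0.51 to 0.31, the narrowest of the 7. Fos read 0.36 ± 0.31, Fosl1 -0.06 ± 0.43, Dusp1 -0.42 ± 0.41 and Dusp6 -0.31 ± 0.43. Jun turned to 0.030 without WT total replicate 2, and Fosl1 to 0.34 without WT total replicate 1 and to 0.25 without KI total replicate 2. Junb lay between 0.86 and 1.78 and Fos between 0.11 and 0.62 with any 1 array left out.

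In polysomal RNA 0 of 7 members passed and 0 had an unadjusted p under 0.05, where 0.0566% of all tested genes passed and 1013 had that unadjusted p. Fos was closest, at 0.70 ± 0.31 higher in KI (n = 2 arrays per group; limma adjusted p = 0.461; interval -0.05 to 1.46). It was the only member of the 7 whose arrays did not overlap between KI and WT, a share below that of all genes, 52.5%. Junb read 0.77 ± 0.60, and 0.011 without KI polysomal replicate 1 and 1.54 without KI polysomal replicate 2. Egr1 read 0.47 ± 1.45 and Dusp1 0.37 ± 0.41. The Dusp1 value came from replicate 2, where KI exceeded WT by 1.16, while in replicate 1 KI was lower (a difference of -0.42). Without WT polysomal replicate 2 the Dusp1 value was -0.16 and that of Egr1 -0.96, and Egr1 also turned without KI polysomal replicate 1 (-0.19). Fosl1 read -0.39 ± 0.43, Dusp6 -0.12 ± 0.43 and Jun -0.02 ± 0.17. Each of these 3 turned its sign without KI polysomal replicate 2, and Dusp6 and Jun also without WT polysomal replicate 1.

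Set side by side by replicate number, Fos and Junb were above WT in KI in all 4 pairs, 2 of 7 tested members against 14.2% of all tested genes. Fos exceeded WT by 0.50 and 0.23 in total RNA and by 0.72 and 0.68 in polysomal RNA. For Junb the KI excess was 1.56 and 1.09 in total and 1.13 and 0.42 in polysomal RNA. Egr1 differed by 0.20 and 1.14 in total and by -0.30 and 1.24 in polysomal RNA, so its positive mean came mainly from replicate 2, in which the WT arrays were the lowest of all. The Dusp6 pairs read 0.02 and -0.64 in total and 0.04 and -0.27 in polysomal RNA. An exact permutation test of 1 gene over 2 against 2 arrays cannot go below a two-sided p of 0.333, so none was used.

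**Figure D3:**
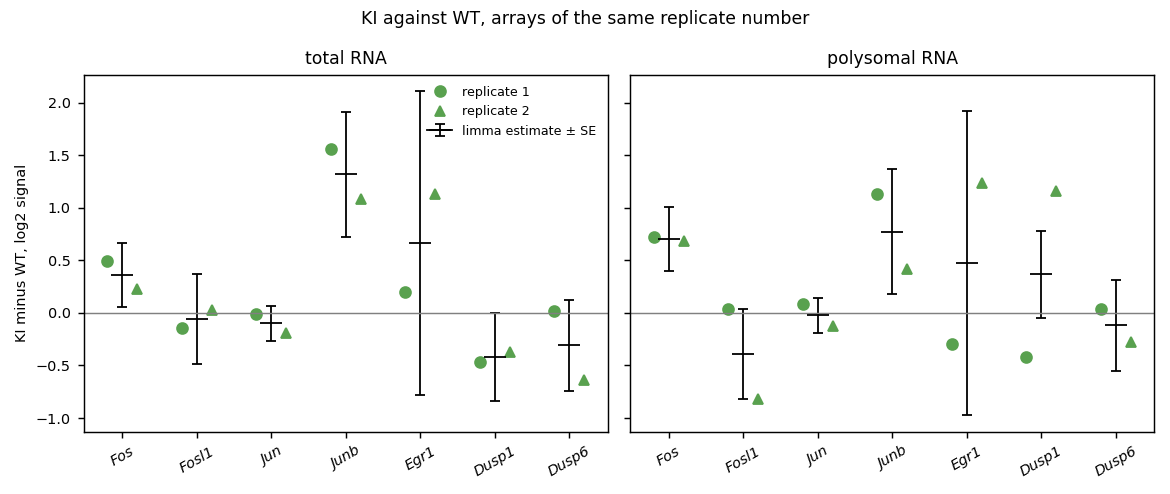
KI minus WT in log2 signal for the 7 tested members in total (left) and polysomal RNA (right), with circles and triangles for arrays of replicate number 1 and 2 and black bars for the limma estimate ± SE. Both points lie above 0 in both panels for Fos and Junb, and the Egr1 bar is the longest.

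The promoters of 3 AP-1 genes and of Dusp1 are shown because the members are grouped by their shared response to growth signals. RefSeq windows around the start (GRCm38.p6) were found for 7 of the 10 members, namely Fos, Fosl2, Jun, Junb, Dusp1, Dusp6 and Spry2. The 250 bases upstream of the start are printed for Fos (chr12:85473640-85473889, plus strand), Jun (chr4:95052223-95052472, minus strand), Junb (chr8:84978749-84978998, minus strand) and Dusp1 (chr17:26508473-26508722, minus strand). Each reads 5′ to 3′ along the gene, with matches in capitals. The motifs marked are the TATA box, searched as TATAAA, the GC box, searched as GGGCGG, and the cAMP response element or CRE, searched as TGACGTCA.

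Fos: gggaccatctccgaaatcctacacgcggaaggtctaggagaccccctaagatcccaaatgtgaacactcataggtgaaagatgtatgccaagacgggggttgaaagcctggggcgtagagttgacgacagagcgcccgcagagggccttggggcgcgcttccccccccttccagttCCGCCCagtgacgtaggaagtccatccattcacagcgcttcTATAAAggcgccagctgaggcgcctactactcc

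Jun: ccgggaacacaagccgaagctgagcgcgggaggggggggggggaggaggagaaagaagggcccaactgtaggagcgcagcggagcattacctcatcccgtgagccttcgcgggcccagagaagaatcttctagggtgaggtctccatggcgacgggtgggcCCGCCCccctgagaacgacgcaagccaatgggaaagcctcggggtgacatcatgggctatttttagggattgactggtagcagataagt

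Junb: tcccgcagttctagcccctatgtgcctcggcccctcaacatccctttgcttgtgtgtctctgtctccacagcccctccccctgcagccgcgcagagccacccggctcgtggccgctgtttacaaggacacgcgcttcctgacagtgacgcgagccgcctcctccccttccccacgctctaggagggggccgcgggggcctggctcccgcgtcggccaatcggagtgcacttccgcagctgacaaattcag

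Dusp1: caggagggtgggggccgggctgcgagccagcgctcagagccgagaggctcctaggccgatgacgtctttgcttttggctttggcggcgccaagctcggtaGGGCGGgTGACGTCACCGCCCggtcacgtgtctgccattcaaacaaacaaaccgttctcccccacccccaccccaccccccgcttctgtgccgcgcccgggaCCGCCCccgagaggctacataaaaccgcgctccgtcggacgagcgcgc

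Both strands of the whole windows were searched. A GC box was in 4 of 7 member windows (Fos, Fosl2, Jun and Dusp1), and in 35.7% of all 32851 windows. The Fos window held a TATA box at positions -33 to -28 and a GC box on the other strand at -74 to -69. In Dusp1 the CRE at -143 to -136 lay between GC boxes at -150 to -145 and -135 to -130, with another at -48 to -43. A CRE was in 1.79% of all windows. The TATA box motif was in 2 of 7 member windows (Fos, and Junb just after the start) and in 13.6% of all windows. The Fosl2 window held GCGNGGGCG, the site of EGR proteins (5.55% of all windows), which overlapped its GC box. Matches to TGANTCA (the AP-1 site, 7.81%), CCGGAAG (an ETS site, 8.86%) and the CArG box (the site of SRF, 1.63%) were in 0 of the 7. No match says only that these letters are not in this window.

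Polysomal against total RNA measures how far an mRNA is held on several ribosomes, relative to other mRNAs. In the fit of all arrays 0 of 7 members passed in either line. In WT 37.9% and in KI 37.1% of all tested genes passed, and 0 members had an unadjusted p under 0.05 in either. Junb was lower in polysomal RNA of every culture, by differences of -0.49 and -0.86 in WT and -0.92 and -1.53 in KI. Its mean was -0.67 ± 0.60 in WT (adjusted p = 0.425) and -1.22 ± 0.60 in KI (adjusted p = 0.163; n = 2 arrays per group, limma). Total and polysomal RNA of a culture share a source name. With the culture as a fixed block Junb fell in KI by 1.22 on the log2 scale (SE 0.19, limma adjusted p = 0.0128) and read -0.67 ± 0.19 in WT (0.0514). The 0 of 7 members passing in KI became 1 of 7, where under that block 40% of all tested genes passed in KI and 40.8% in WT.

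The other members were nearer to 0 or differed between cultures. Dusp1 polysomal minus total differences were -0.06 and -1.59 in WT and -0.010 and -0.060 in KI, so its WT mean of -0.82 ± 0.41 (adjusted p = 0.171) rested on replicate 2 and was -0.29 without WT polysomal replicate 2. In WT the Jun differences were -0.09 and -0.53, and in KI 0.0033 and -0.46. Egr1 read 0.38 and 0.60 in WT, and in KI -0.12 and 0.71, with means of 0.49 and 0.29. The WT mean turned to -1.05 without WT total replicate 2 and to -0.94 without WT polysomal replicate 1. The KI mean turned to -0.79 without KI total replicate 2 and to -0.37 without KI polysomal replicate 1. Each of these fits left out 1 RNA of a culture and so split a culture pair. With the culture as a fixed block, Egr1 read 0.49 ± 0.22 in WT and 0.29 ± 0.22 in KI (limma adjusted p = 0.152 and 0.365). For Dusp6 the differences were 0.56 and -0.24 in WT and 0.58 and 0.12 in KI, and for Fosl1 -0.37 and 0.26 in WT and -0.18 and -0.59 in KI. Fos read 0.03 and -0.31 in WT, and in KI 0.25 and 0.14. The polysomal and total arrays did not overlap for 3 of 7 members in WT (Dusp1, Jun and Junb) and for 0 of 7 in KI. Among all tested genes they did not overlap for 73.5% in WT and 72.2% in KI.

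**Figure D4:**
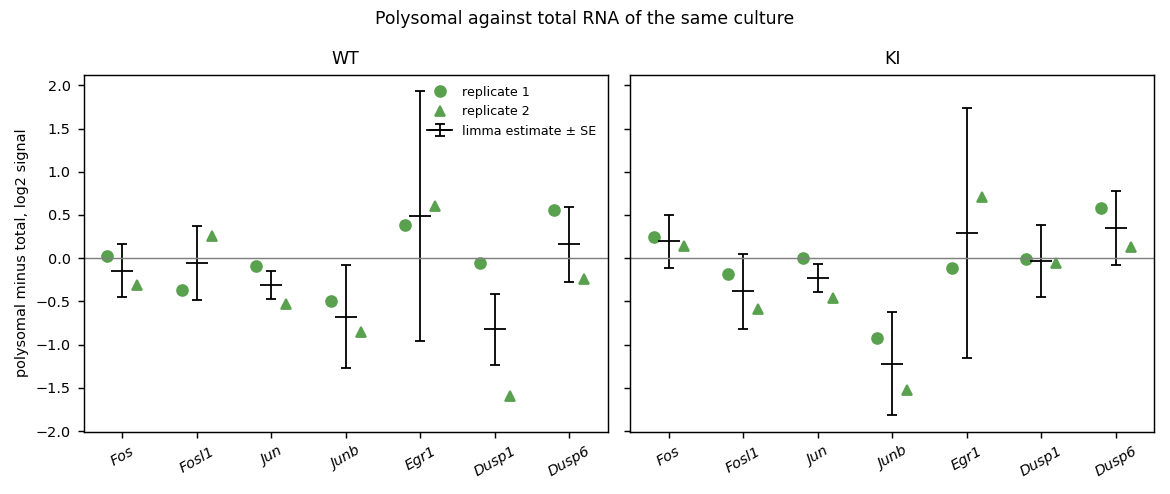
Polysomal minus total log2 signal of the same culture for the 7 tested members in WT (left) and KI (right), with circles and triangles for replicates 1 and 2 and black bars for the limma estimate ± SE. Junb lies below 0 in all 4 cultures, and for Dusp1 in WT the triangle lies at -1.59 while the circle lies near 0.

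Polysomal loading, the KI polysomal minus total difference less that of WT, asks whether heavy polysomal signal, relative to total, differed between the lines. It cannot tell eIF4E phosphorylation apart from other differences between the lines. In limma 0 of 7 members passed, as did 0 of all tested genes (0%), with 199 genes and 0 members at an unadjusted p under 0.05. Dusp1 read 0.79 ± 0.59 (interval -0.66 to 2.24), and 0.26 without WT polysomal replicate 2 and 1.32 without WT polysomal replicate 1. Junb read -0.55 ± 0.84 (-2.62 to 1.53) and turned without KI polysomal replicate 2 (0.22). Fos read 0.34 ± 0.43, Fosl1 -0.33 ± 0.61, Egr1 -0.20 ± 2.05, Dusp6 0.19 ± 0.61 and Jun 0.08 ± 0.23. In this fit, which leaves out the culture pairs, the Jun interval, -0.50 to 0.65, was the narrowest of the 7. Without WT total replicate 2 Egr1 turned to 1.35, Fosl1 to 0.067 and Jun to -0.050. Leaving out single arrays turned the Egr1 value in 4 of 8 cases, the Dusp6 and Jun values in 3 each and the Fosl1 value in 2. Such fits split the pair of RNAs of a culture. With the culture as a fixed block, which keeps the pairs, Egr1 read -0.20 ± 0.32 (interval -1.05 to 0.65). In that fit Junb read -0.55 ± 0.27, Fosl1 -0.33 ± 0.28 and Fos 0.34 ± 0.18. Dusp1 read 0.79 ± 0.54, Dusp6 0.19 ± 0.34 and Jun 0.08 ± 0.25. The Fos interval, -0.14 to 0.82, was then the narrowest, and the intervals of all 7 held 0.

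Other immediate early genes were counted from a list. Of 40 listed 34 were tested, and 0 rose and 0 fell in limma in KI against WT in either type of RNA, with 5 and 4 at an unadjusted p under 0.05. Their median was 0.12 in total and 0.15 in polysomal RNA, beside -0.04 and -0.01 for all tested genes, while 11 of 34 were above WT in all 4 pairs (14.2% of all tested genes) and 5 below (19.7%). Egr4, an EGR family transcription factor gene, read 7.64 and 7.66 in WT total and 10.28 and 9.32 in KI total RNA. In polysomal RNA Egr4 read 7.62 and 7.63 in WT, and in KI 10.09 and 8.63. WT was thus at the bottom of the range in both, so Egr4 lay above the filter only through KI and no difference is given. Egr4 is still counted among the 11 above WT in all 4 pairs and among the 5 and 4 at an unadjusted p under 0.05. Fosb, also among the 11, read at most 7.82 in WT. These counts thus depend in part on the filter. Plk2, a polo-like kinase gene, went the other way at -0.79 in total and -1.52 in polysomal RNA (adjusted p = 0.522 and 0.162). The serum-induced kinase gene Sgk1 read -0.84 in total and -0.83 in polysomal RNA, without passing (limma adjusted p = 0.402 and 0.291). Nr4a2, a nuclear receptor gene, read 8.42 and 8.21 in KI polysomal RNA and at most 7.97 elsewhere.

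By replicate, 6 of these 34 were lower in replicate 2 of all 4 groups (Egr2, Fosb, Hbegf, Mcl1, Phlda1 and Zfp36), as were 10.8% of all tested genes, and 1 of 34 was higher (Homer1; 12.3% of all). Fosb is among the 6 through WT values at the bottom of the range. The median of the 34 was -0.12, beside 0.01 for all tested genes. These genes were named after their values were seen. Egr2, a relative of Egr1, read 9.21 and 8.13 in WT total, 9.50 and 8.03 in KI total, 9.40 and 8.23 in WT polysomal and 10.01 and 8.09 in KI polysomal RNA. Fosb, a FOS family gene, was above 8 only in replicate 1 of KI, at 9.06 in total and 8.73 in polysomal RNA. In polysomal against total RNA of WT 4 of the 34 rose and 4 fell, where 37.9% of all tested genes passed. Klf6, a zinc finger factor gene, rose by 2.71 (adjusted p = 0.00165) and Mcl1, a survival gene of the BCL2 family, by 1.5 (0.00317). Maff, a small MAF factor gene, fell by 1.03 (0.00323), and in KI 7 of the 34 rose and 3 fell (37.1% of all tested genes passed).

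Of 21 other MAP kinase phosphatase and receptor feedback genes 15 were tested, and 0 passed in limma in KI against WT in either type of RNA (2 and 1 at an unadjusted p under 0.05). Dusp2, a phosphatase gene induced by ERK, read 7.83 and 7.67 in WT total and 11.47 and 9.17 in KI total RNA. In polysomal RNA Dusp2 read 7.68 and 7.68 in WT, and in KI 10.63 and 8.0. As for Egr4, the WT arrays were close to the lowest signals, so no difference is given, and KI total replicate 1 was the highest array. Dusp2 is still counted among the 2 genes at an unadjusted p under 0.05 in total RNA. Dusp4, another nuclear phosphatase gene, read 0.56 in total and 1.13 in polysomal RNA (adjusted p = 0.783 and 0.418). In polysomal against total RNA of WT 3 of the 15 rose and 2 fell, beside 37.9% of all tested genes passing. Among them were Rasa1, a GTPase activator of RAS (2.16, adjusted p = 0.0139), Dusp16 (1.00, 0.00203) and Dusp3 (-0.90, 0.00675). By replicate, 2 of the 15 were lower in replicate 2 of all 4 groups (10.8% of all tested genes) and 2 were higher (Pebp1 and Spry3; 12.3% of all). Of the lower pair, Dusp2 had WT polysomal values at the bottom of the range. The other, Errfi1, an inhibitor of the EGF receptor, was named like Pebp1 and Spry3 after its values were seen and read 11.58 and 9.66 in WT total and 11.40 and 10.26 in KI total RNA.

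**Figure D5:**
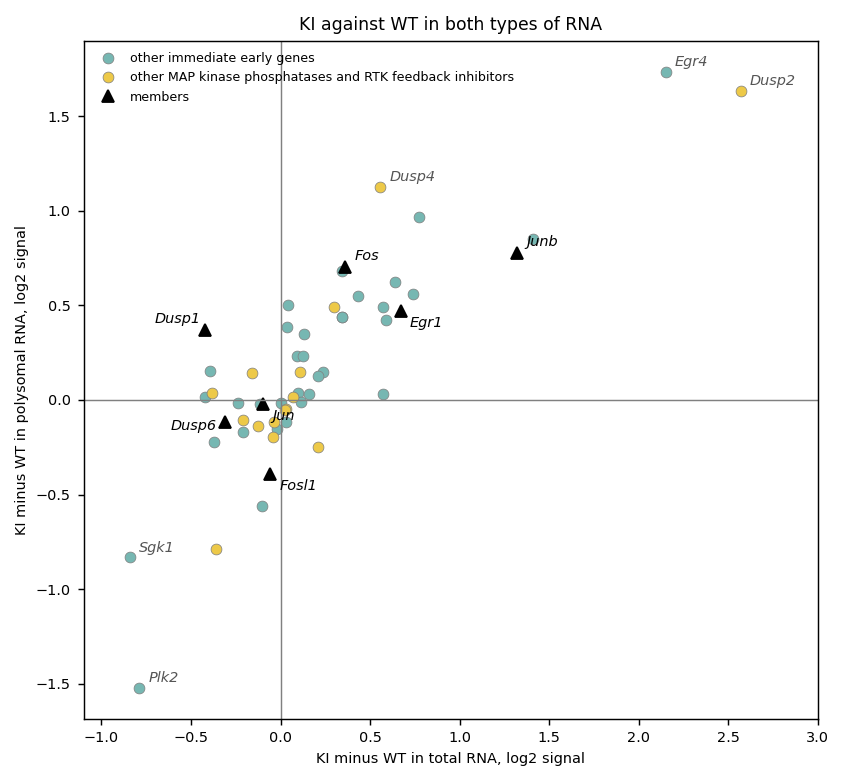
KI minus WT in log2 signal in total (horizontal axis) and polysomal RNA (vertical axis), with 1 point per tested gene: black triangles for the 7 members, green for 34 other immediate early genes and yellow for 15 other phosphatase and feedback genes. Plk2 lies lowest and no point shown passed in limma. Egr4 and Dusp2 are drawn at fitted values, but their WT signals lie at the bottom of the range, so the size of their differences cannot be read from the plot.

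Genes of the ERK, JNK and p38 cascades were also tested. Of 15 tested genes of the ERK cascade and 16 of the JNK and p38 cascades, 0 passed in limma in KI against WT in either type of RNA (1 and 3, then 0 and 1, at an unadjusted p under 0.05 in total and polysomal RNA). Gab1, an adaptor of growth factor receptors, read 0.96 in polysomal RNA (adjusted p = 0.116), and Mknk1, which encodes the MNK1 kinase of eIF4E, 0.35 (0.319). In polysomal against total RNA of WT, where 37.9% of all tested genes passed, 3 ERK cascade genes rose and 4 fell, with Ptpn11, a phosphatase that promotes RAS signalling, at 1.41 (adjusted p = 0.00533) and Mknk2, the MNK2 gene, at -1.52 (0.0041). Of the 16 JNK and p38 genes 3 rose and 5 fell in the same comparison, with Map2k4 at 1.45 (0.0048) and Mapkapk2, a kinase below p38, at -1.01 (0.0103).

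Factors that act on immediate early promoters or pair with AP-1 also had 0 passing in KI against WT in limma (16 and 8 tested; 0 and 1 at an unadjusted p under 0.05 in total RNA and 0 and 0 in polysomal RNA). Srf, the factor that binds the CArG box, read 0.17 in total and 0.64 in polysomal RNA (adjusted p = 0.548 in the latter). In polysomal against total RNA of WT Srf fell by 1.52 (adjusted p = 0.018), Ets1, an ETS factor gene, rose by 2.27 (0.00277) and Bach1, a bZIP repressor gene, rose by 1.42 (0.00147). Of 5 tested genes for proteins that bind AU-rich or related elements in short-lived mRNAs, 0 passed in KI against WT in limma (0 at an unadjusted p under 0.05 in either). Zfp36l1, which speeds decay of such mRNAs, read -1.26 in polysomal RNA (adjusted p = 0.544), and in WT Pum2 rose by 1.08 in polysomal against total RNA (0.00243).

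Of 16 tested genes known as targets of AP-1, 0 passed in limma in KI against WT, with 4 in total and 5 in polysomal RNA at an unadjusted p under 0.05. Their medians were 0.52 and 0.48, and 9 of the 16 were above WT in all 4 pairs, beside 14.2% of all tested genes. The metallothionein gene Mt1 read 1.12 in polysomal RNA (adjusted p = 0.189), the LIM domain gene Fhl2 0.91 (0.218), the sphingosine kinase gene Sphk1 2.48 (0.383) and the metalloproteinase gene Mmp3 -1.94 (0.383). Mmp3 was among the genes the study picked on these samples. In the same comparisons the 9 tested fibroblast markers had medians of 0.46 and 0.42. Of these 9, 4 were above WT in all 4 pairs and 1 below (14.2% and 19.7% of all tested genes). Whether the 2 lists differ was not tested. By replicate, 6 of the 16 AP-1 targets were lower in replicate 2 of all 4 groups, beside 10.8% of all tested genes, and 2 were higher (Mmp13 and Timp1; 12.3% of all). Timp1 was named after its values were seen. The list's median for replicate 2 against 1 was 0.01, with 8 genes above and 8 below 0.

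Across the 8 arrays the tested genes most like each member, by Pearson correlation of log2 signal, were given by their likeness alone. The arrays share RNA type, line and replicate number, so such values describe these arrays. Egr1 was closest to Xbp1 (0.98), Car5b (0.96) and Strip2 (0.95), and Junb to Gnpda1 (0.99), Lpin3 (0.97) and Sema4b (0.97). Fos was closest to Dzip1l (0.95), Map7d1 (0.94) and Tmem185b (0.93), and Fosl1 to Cfl1 (0.95), Wbp2 (0.94) and Plcg2 (0.92). The genes most like Jun were Vps37b (0.96), Tle6 (0.95) and Yipf3 (0.95), and those most like Dusp6 were Xpnpep1 (0.96), Stx5a (0.95) and Tuft1 (0.94). Dusp1 had the weakest likeness of the 7, with Aif1l (0.90), Usp20 (0.88) and Nprl2 (0.88). No other member was among the 3 closest genes of any member.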

How the data were processed

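RNA was measured on 8 Illumina bead arrays, 2 per group, with groups and replicate numbers taken from the sample titles. The log2 values were processed by the authors. Per the submitters' processing notes the R package lumi was used. How signals were transformed, corrected and normalized is not given in the sources used here. That the deposited values are on a log2 scale was read from their range, and folds hold only if so. Another deposited table is called non-normalized, but its 8 columns equal the values above within 1e-06 and their names match no label. They were left out, so background correction and quantile normalization of raw signal could not be run. The number of arrays limits the precision.

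Gene symbols came from the platform annotation: 23978 of 25697 probes had 1 symbol. Probes with a mean over the arrays above the median of the probe means, 7.73, were kept (12848), and the brightest probe represented each gene, which gave 8832 tested genes. limma 3.58.1 in R 4.3.3 (lmFit, eBayes) fitted 4 group means with no block, 4 residual and 1.8 prior degrees of freedom. p-values are two-sided and adjusted over the 8832 genes by the Benjamini-Hochberg method, with a threshold of 0.05. Intervals are 95%. The fit was tested on simulated data in which all arrays varied independently, so that test does not cover the shared cultures. The members, gene lists and tests were chosen with earlier results of these data known. The named genes were all members, from each list up to 4 genes by smallest p in polysomal KI against WT, any gene passing between KI and WT and up to 3 by smallest p in polysomal against total RNA of WT, the 3 genes most like each member, and Eif4e. The replicate comparison was added after the values were seen. Total and polysomal RNA of 1 culture share a source name, so culture pairs them. Over the tested genes, deviations of the 2 RNAs from their group means had a correlation of 0.58 for KI and 0.05 for WT. Promoter sequences are from RefSeq (GRCm38.p6).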

Additional observations from a re-analysis of the deposited data

How the results depend on the processing

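In none of the settings run did a member pass in KI against WT or in polysomal loading. With the culture, or the replicate number, as a replicate block, Junb passed in polysomal against total RNA of KI, so that 1 member passed there instead of 0; the adjusted p was 0.0128 and 0.0170, and 40% and 41.8% of all tested genes passed there under these blocks. Between lines, arrays have just the number in common; the correlation of same-numbered deviations was 0.39 for total and 0.24 for polysomal RNA. The replicate block by number changed no other member call at the adjusted threshold. With it 2 of 7 members had an unadjusted p under 0.05 in KI against WT instead of 0, and their limma intervals left 0. In total RNA these were Junb (0.67 to 1.97) and Fos (0.053 to 0.67), and in polysomal RNA Fos (0.39 to 1.01) and Junb (0.13 to 1.42). Of all tested genes 961 and 1290 had such a p. This block also gave 13 genes passing in polysomal KI against WT instead of 5. An eBayes trend gave 58 and 63 genes passing in total and polysomal KI against WT, and 4 genes with 1 member, Egr1, in replicate 2 against 1. In polysomal KI against WT, testing every probe gave 15 and no filter on dim probes 9. Quantile normalization turned Fosl1 in total KI against WT to 0.011 and Dusp1 in polysomal against total RNA of KI to 0.031. Of 224 member values under settings that kept all arrays, 219 kept direction and side of the threshold.

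Leaving out 1 array turned the sign of 46 of 336 member values, none of them passing. Genes passing ranged from 0 to 40 in total KI against WT (0 without any 1 KI array, 40 without WT total replicate 2), from 0 to 56 in polysomal KI against WT (56 without either WT total array), from 0 to 7 in loading (7 without WT total replicate 1), and from 1407 to 3481 in WT and 1414 to 3533 in KI for polysomal against total RNA. In total KI against WT, Egr1 ranged from -0.88 to 2.21, Fosl1 from -0.46 to 0.34 and Jun from -0.23 to 0.030. In polysomal KI against WT, Dusp1 ranged from -0.16 to 0.90, Dusp6 from -0.65 to 0.42, Egr1 from -0.96 to 1.91, Fosl1 from -0.90 to 0.12 and Jun from -0.22 to 0.18. For polysomal against total RNA in WT, Dusp6 ranged from -0.22 to 0.54, Egr1 from -1.05 to 2.04, Fos from -0.43 to 0.15 and Fosl1 from -0.45 to 0.35. In KI, Dusp1 ranged from -0.32 to 0.25, Dusp6 from -0.18 to 0.88, Egr1 from -0.79 to 1.37, Fos from -0.11 to 0.50 and Fosl1 from -0.90 to 0.13. In loading, Dusp6 ranged from -0.34 to 0.72, Egr1 from -1.74 to 1.35, Fosl1 from -0.84 to 0.18, Jun from -0.12 to 0.27 and Junb from -1.31 to 0.22. For replicate 2 against 1, Dusp1 ranged from -0.029 to 0.51 and Jun from -0.17 to 0.047. The cause was not tested. With 1 array left in a group, that array is assumed to vary like the others. Leaving out 1 array also splits the pair of RNAs of its culture. Correcting the background of raw signal was not run.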
